A study of Danio rerio with 6 samples.

Results

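Wnt signalling is the pathway by which secreted Wnt proteins control cell fate, polarity and growth, and in bone it is known for promoting osteoblast formation. Its genes were followed here in cells sorted from zebrafish embryos exposed to bisphenol A (BPA), a plastics chemical with estrogenic activity, and in cells from control embryos. The members were all genes of the deposited count table whose gene name begins as a Wnt ligand, a Frizzled or LRP5/6 receptor, a secreted inhibitor (Dickkopf, SFRP, frzb, sclerostin, WIF1 or Notum families), an R-spondin or its target ligases, a cytoplasmic component (Dishevelled, Axin, APC, beta-catenin, Naked) or a nuclear effector (LEF1, TCF7 family, SP5 family). This gave 89 of the 32520 genes in the table.

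In the branch of the pathway that runs through beta-catenin, a Wnt protein carried to the surface by Wntless binds a Frizzled receptor with LRP5 or LRP6, Dishevelled is recruited, and the complex of Axin and APC stops marking beta-catenin for destruction. Beta-catenin then enters the nucleus and turns TCF and LEF proteins from repressors into activators, and among the genes switched on are inhibitors of the pathway itself, such as AXIN2 and NKD1. Other Wnt proteins act without beta-catenin, on cell shape and movement. R-spondins raise the response by removing ligases that degrade Frizzled receptors, and many secreted inhibitors bind either the Wnt proteins or the LRP receptors.

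The exposed group was GFP-positive cells from embryos of the sp7-eGFP line kept in 200 nM BPA from 24 hours to 4 days post fertilization, with 3 libraries. The control group was GFP-positive cells of the same line and age without BPA, also with 3 libraries, and the labels do not state what its medium held. Each arm began from 400 embryos that were dissociated and sorted. The reporter marks cells that express sp7, an osteoblast transcription factor gene, and both groups carried it. Whether the 3 libraries of a group stem from different pools is not stated in the labels, so p-values measure only the spread between these libraries, which may be technical.

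The libraries held between 30748435 and 43403568 counts, and exposed libraries correlated with each other at 0.982 to 0.984 and control libraries at 0.963 to 0.968 (log2 CPM across genes, which are not independent replicates). CPM values are counts brought to a common library total, with a scaling factor for each library. As to the label, SP7 was at 8.49 ± 0.355 CPM in exposed and 6.87 ± 1.55 CPM in control libraries (SD, n = 3 each). It did not pass edgeR's test described below (adjusted p = 0.175). The bone collagen gene COL1A2 was higher in exposed libraries, at 2826 CPM and 2350.0 CPM, and so was COL1A1, at 4037 CPM and 2715 CPM. The related col1a1a was lower, at 2718 CPM and 3048 CPM. The gene bglap, for osteocalcin, was at 0 counts throughout. Markers of other cells were present too, in amounts that differed between the groups. By the same test, 20.1% of all genes tested were higher and 18.7% lower in exposed libraries. Summed epidermis markers ranged from 10833 to 11131 CPM in exposed libraries and from 5869 to 5964 CPM in control libraries, and 6 of 8 rose and 1 fell. Chondrocyte markers summed to 1235 to 1277 CPM in exposed and 1561 to 1601 CPM in control libraries, with 11 of 15 lower and 0 higher. Endothelium markers summed to 68.8 to 70.7 CPM against 128 to 140.1 CPM, with 7 of 9 lower and 0 higher, and neural crest and glia markers to 237 to 246 CPM against 686 to 693 CPM, with 4 of 7 tested lower and 0 higher. Liver markers (0 of 8 higher, 8 lower) summed to 1203 to 1222 CPM in exposed and 3909 to 4066 CPM in control libraries. Intestine markers (1 of 9 higher, 5 lower) summed to 128 to 135 CPM against 260 to 279 CPM. Osteoblast markers went both ways, with 3 of 16 tested higher (18.75%) and 5 lower (31.25%). Their sum was 9850 to 9959 CPM in exposed and 8285 to 8552 CPM in control libraries. Most of that sum came from COL1A1, COL1A2 and col1a1a, given above. Of the other osteoblast markers that passed, PHEX was higher, and spp1, IFITM5, PANX3 and DLX5 were lower. Skeletal muscle (6 of 10 higher, 4 lower), leukocyte (10 of 15 tested higher, 1 lower), pigment cell (4 of 8 higher, 0 lower), neuron (1 of 9 higher, 6 lower) and tendon and fibroblast markers (3 of 12 tested higher, 6 lower) completed the lists. In sorted bulk samples, fewer cells of a type and less RNA per cell cannot be told apart, and the part of these markers in the Wnt values below was not tested.

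**Figure D1:**
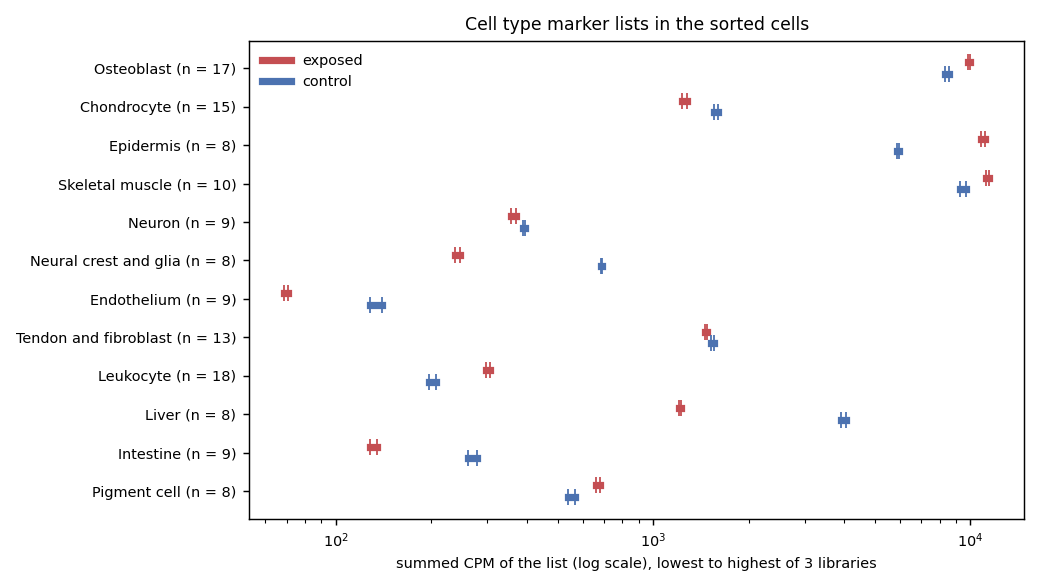
Summed CPM (log scale) of 12 lists of cell type markers, each bar running from the lowest to the highest of the 3 libraries of a group, exposed above control, with n the genes in a list. The bars of the 2 groups do not overlap in any list; endothelium, liver, intestine and neural crest and glia lists lie lower in exposed libraries, and the epidermis list higher.

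Most of the Wnt genes that passed the test were lower in the exposed cells, while a small set of ligands, 1 receptor and 1 inhibitor were higher. Of the 89 genes, 79 had enough counts to be tested; 7 rose, 26 fell and 46 did not pass, by edgeR's quasi-likelihood test at a Benjamini-Hochberg adjusted p of 0.05 over all 21194 genes tested. Of all genes tested, 38.8% passed, 20.1% higher and 18.7% lower. The share of Wnt genes past the threshold, 41.8%, was near that background, but its split was not the same, with 8.86% higher and 32.9% lower. Of the members averaging at least 5 CPM 9.09% were higher and 45.45% lower, against 25.9% and 26.3% of all genes at that level. Shares of smaller groups below are set against all genes tested, whatever their level. The median log2 fold change was -0.16 over the 79 genes and -0.0029 over all genes tested. Changes were mostly moderate, as over all genes: 6 of the 33 calls were at least 2-fold, against 1926 of the 8213 calls over all genes tested. The median size of a called change was 0.57 on the log2 scale, against 0.58 for all called genes.

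Exposed and control values were fully separated for 37 of the 79 genes, 11 of them higher and 26 lower in exposed libraries, against 48.4% of all genes tested, with 25.2% higher and 23.2% lower. Of the 33 calls, 18 held whichever library was left out, 4 of them higher and 14 lower in exposed. Without exposed library 1 the 7 higher calls became 4, and without exposed library 3 the 26 lower calls became 15. The 46 genes that did not pass had log2 fold changes between -1.13 and 0.64, and the 20 of these that averaged at least 5 CPM between -0.24 and 0.26.

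**Figure D2:**
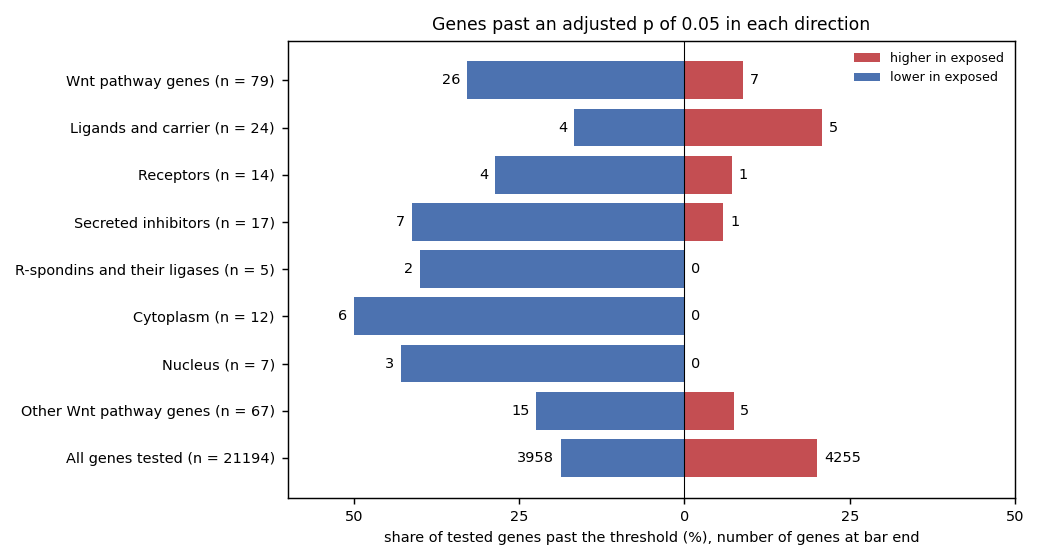
Share of tested genes (%) higher (right) and lower (left) in exposed libraries at an adjusted p of 0.05, with the number of genes at the bar end, for the Wnt pathway genes, their 6 role groups, other Wnt pathway genes and all 21194 genes tested. Ligands have 5 higher and 4 lower calls with their carrier, whereas the cytoplasm, nucleus and R-spondin groups have lower calls only.

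The ligand genes that passed went both ways. Among 23 ligand genes tested there were 5 that rose and 3 that fell, and 15 did not pass (median log2 fold change 0.05). The share past the threshold, 34.8%, was near the 38.8% of all genes tested, and so was the higher share, 21.7% against 20.1%. WNT9B, a ligand of the beta-catenin type that in mammals acts in the face and kidney, had 23.9, 26.0 and 23.9 CPM in exposed libraries 1, 2 and 3 and 9.56, 12.4 and 10.6 CPM in control libraries 1, 2 and 3. Every exposed value lay far above every control value (log2 fold change 1.18 ± 0.11 SE, adjusted p = 6.32e-10; 1.09 to 1.29 with a library left out).

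Both genes named WNT7A, a ligand of limb ectoderm and skin in mammals, rose. The gene ENSDARG00000002483 was at 4.81, 6.02 and 5.24 CPM in exposed and 2.20, 2.29 and 3.32 CPM in control libraries (log2 fold change 1.05 ± 0.21, adjusted p = 0.000562). Its copy ENSDARG00000044827 was at 36.2, 37.4 and 37.8 CPM against 30.4, 28.2 and 28.9 CPM (log2 fold change 0.35 ± 0.04, adjusted p = 0.000438). Neither pair of groups overlapped, and both calls held with any 1 library left out. Summed epidermis markers were higher in the same exposed libraries, as were those of other lists given above. Their part in the WNT7A values was not tested.

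WNT3A and WNT9A rose at low levels. WNT3A, a classic activator of beta-catenin, had 52, 58 and 52 counts in exposed libraries and 7, 20 and 30 in control libraries, which is 1.69, 1.38 and 1.22 CPM against 0.188, 0.455 and 0.930 CPM (log2 fold change 1.45 ± 0.60, adjusted p = 0.0335). The groups did not overlap, but the control values were spread widely, and the call was lost without control library 1 or 2 or any 1 exposed library (adjusted p up to 0.135). WNT9A, which in zebrafish takes part in blood stem cell and jaw cartilage formation, was at 2.96, 2.59 and 3.28 CPM in exposed and 1.67, 1.82 and 1.80 CPM in control libraries (log2 fold change 0.74 ± 0.10, adjusted p = 0.0402). Its groups did not overlap, but the call was lost when any 1 of the 6 libraries was left out (adjusted p up to 0.162). The WNT9A log2 fold change ranged from 0.65 to 0.83 in these fits. In the RefSeq gene order of the GRCz12tu assembly, wnt3a and wnt9a stand next to each other. The other adjacent pair found among 56 placed members, wnt10b and wnt1, did not pass for either gene.

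Ligands that usually act without beta-catenin were lower where they passed. WNT11, a ligand of this class, was at 101, 106 and 100.2 CPM in exposed and 139, 128 and 133 CPM in control libraries (log2 fold change -0.38 ± 0.04, adjusted p = 1.22e-07). WNT5B, which shapes cartilage and tail in zebrafish, was at 28.5, 26.3 and 27.2 CPM against 34.9, 40.0 and 39.5 CPM (log2 fold change -0.48 ± 0.07, adjusted p = 1.34e-05). In both, every exposed value lay below every control value, and both calls held with any 1 library left out. Among the 6 tested genes of the WNT4, WNT5, WNT11 and WNT16 families, 0 rose and 2 fell (33.3%, against 18.7% of all genes tested). A further low value, that of wnt4b, did not pass, at 0.585, 0.999 and 0.281 CPM against 1.21, 1.23 and 1.67 CPM (adjusted p = 0.0838), although its groups did not overlap. Without exposed library 2 its log2 fold change was -1.67 (adjusted p = 0.0403), and with all libraries -1.13. The 15 tested genes of the WNT1, WNT2, WNT3, WNT7, WNT8, WNT9 and WNT10 families usually act through beta-catenin. Of these, 5 rose (33.3%, against 20.1% of all genes tested) and 1 fell (6.67%, against 18.7%). The shares past the threshold, 33.3% and 40% for these classes, were near the 38.8% of all genes tested. Both rest on few genes, and the difference between the classes was not tested.

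The 1 that fell was WNT8B, a ligand of the developing forebrain, at 0.195, 0.285 and 0.936 CPM in exposed and 1.56, 2.23 and 1.05 CPM in control libraries (log2 fold change -1.74 ± 0.68, adjusted p = 0.0101). The groups did not overlap, but exposed library 3 came close to control library 3. Without exposed library 3 the log2 fold change was -2.72, and without control library 2, exposed library 1 or exposed library 2 the call was lost (adjusted p up to 0.0815). WLS, the Wntless carrier that brings Wnt proteins to the cell surface, was slightly lower, at 134, 130.1 and 125 CPM against 139, 152 and 144 CPM (log2 fold change -0.16 ± 0.05, adjusted p = 0.00626). Its call was lost without exposed library 3 (adjusted p = 0.065). The 15 ligands that did not pass included WNT4 (11.3 CPM in exposed and 10.7 CPM in control libraries), WNT7B (7.55 CPM and 6.89 CPM) and WNT10A (4.00 CPM and 3.38 CPM).

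**Figure D3:**
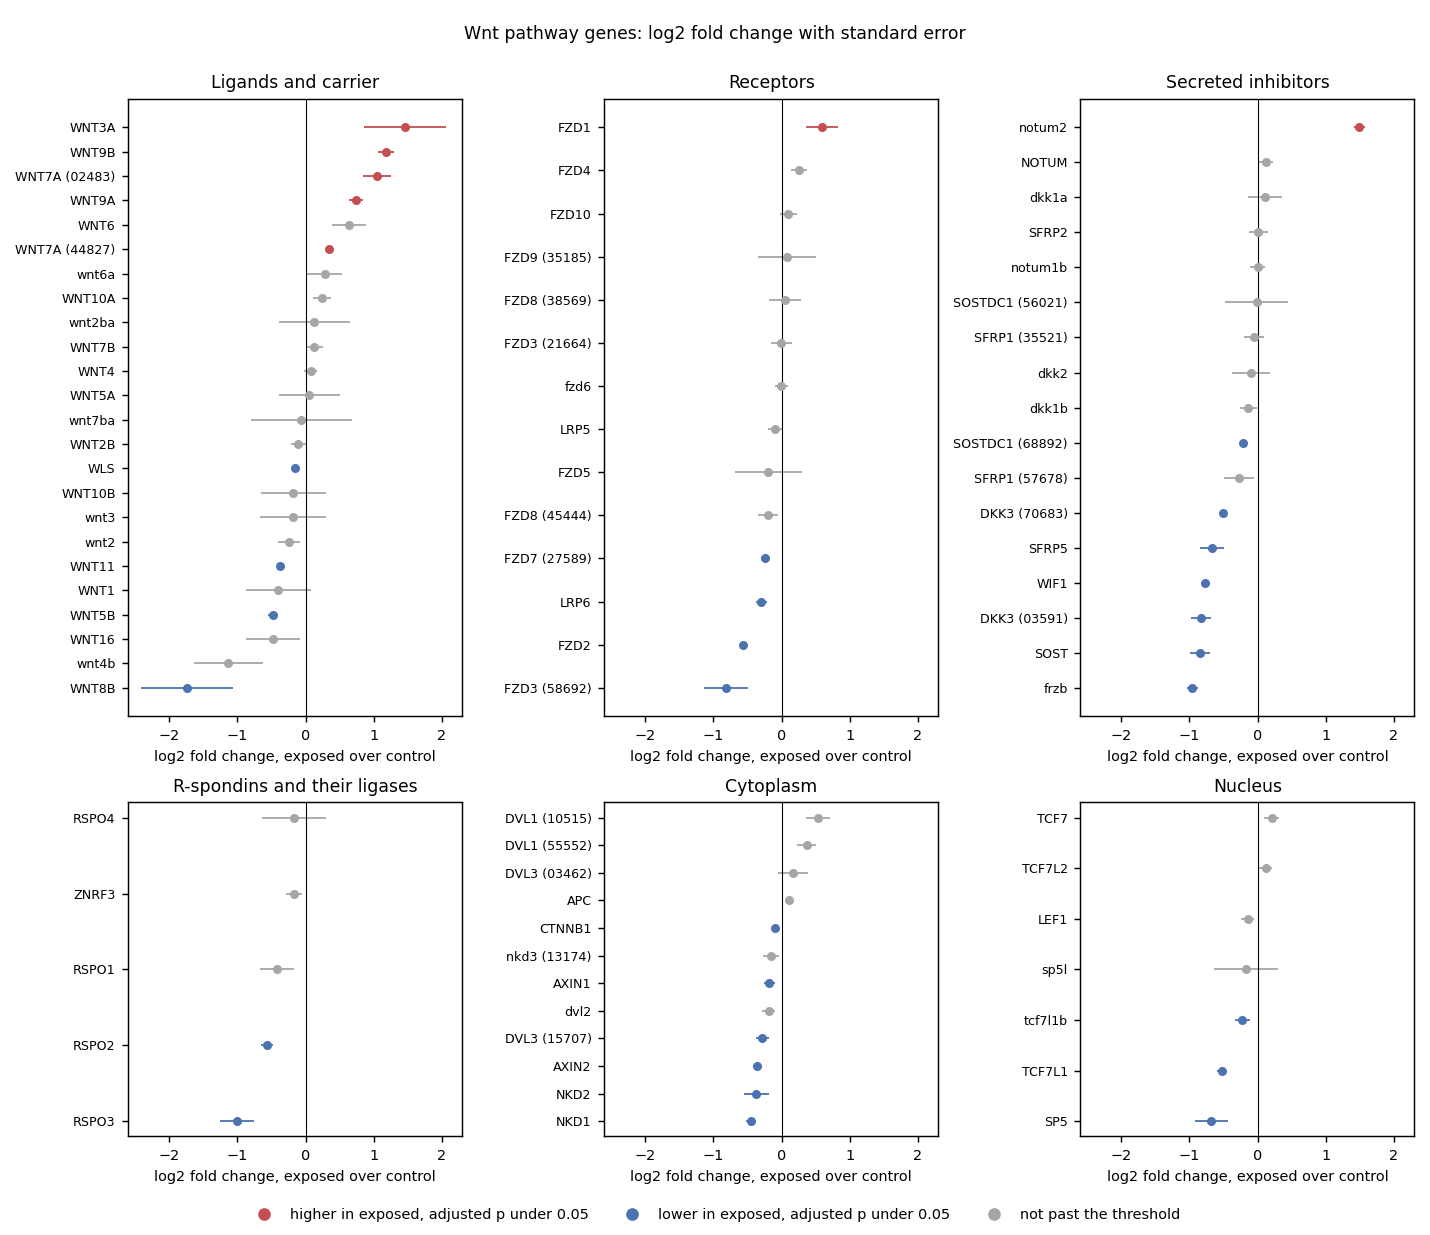
Log2 fold change (exposed over control) with its standard error for the 79 tested Wnt pathway genes, by role; red and blue points passed an adjusted p of 0.05 and grey points did not, and the last 5 digits of the identifier tell genes with the same name apart. Among ligands and their carrier 5 red points stand beside 4 blue ones, 1 of them the carrier WLS, and among secreted inhibitors notum2 alone is red, at 1.49.

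Among the receptors FZD2 had the smallest p. The 14 genes tested held 1 that rose and 4 that fell, while 9 did not pass (median log2 fold change -0.05). The share past the threshold, 35.7%, was near the 38.8% of all genes tested. It was made up of 7.14% higher and 28.6% lower, against 20.1% and 18.7% of all genes tested. FZD2, a Frizzled receptor of mesenchyme, was at 124, 128 and 128 CPM in exposed and 191, 191 and 179.5 CPM in control libraries. The exposed values lay within a narrow band far below the control values (log2 fold change -0.57 ± 0.03, adjusted p = 3.74e-12; -0.60 to -0.55 with a library left out). FZD7 (ENSDARG00000027589), which transmits both branches of Wnt signalling in zebrafish embryos, was at 83.2, 75.6 and 80.1 CPM against 99.1, 91.0 and 93.9 CPM (log2 fold change -0.25 ± 0.05, adjusted p = 0.00039). The groups did not overlap. Another gene named FZD7 (ENSDARG00000060004) had 0 counts in every library.

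The co-receptors LRP5 and LRP6 bind Wnt proteins together with Frizzled. LRP6 fell, at 25.0, 22.6 and 22.2 CPM in exposed and 31.2, 27.9 and 26.6 CPM in control libraries (log2 fold change -0.30 ± 0.09, adjusted p = 0.00965). The groups did not overlap, but the call did not hold without control library 1, exposed library 2 or exposed library 3 (adjusted p up to 0.0608). The LRP6 log2 fold change ranged from -0.35 to -0.23 with a library left out. LRP5, whose human mutations alter bone mass, was at 51.5 ± 0.318 CPM in exposed and 55.1 ± 6.49 CPM in control libraries (SD, n = 3 each) and did not pass (adjusted p = 0.296; 0.0280 without control library 1). FZD1 was the receptor gene that rose, at 10.2, 7.42 and 7.14 CPM against 4.54, 5.02 and 6.79 CPM (log2 fold change 0.60 ± 0.24, adjusted p = 0.0123). Exposed library 1 was its highest, and without it the call was lost (log2 fold change 0.42, adjusted p = 0.148). FZD3 (ENSDARG00000058692), a receptor of axon guidance and planar polarity, was at 2.99, 2.38 and 1.97 CPM against 3.28, 3.57 and 6.01 CPM, with control library 3 well above the others (log2 fold change -0.81 ± 0.32, adjusted p = 0.0167). Without that library its log2 fold change was -0.50 and the call was lost (adjusted p = 0.173), as it was without exposed library 2 or 3. The other gene named FZD3 (ENSDARG00000021664) had an adjusted p of 0.99.

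Of the secreted inhibitors that passed, all but 1 were lower in exposed cells. The group of 17 tested genes had 1 higher and 7 lower calls, and 9 genes did not pass. This was 5.88% higher and 41.2% lower, against 20.1% and 18.7% of all genes tested. The exception was notum2, of the Notum family, whose founding member removes the lipid that Wnt proteins need for activity. It had 30.1, 31.0 and 34.9 CPM in exposed and 10.8, 11.4 and 12.0 CPM in control libraries. This was 2.81-fold higher, with no exposed value near any control value (log2 fold change 1.49 ± 0.08, adjusted p = 2.45e-13; 1.42 to 1.53 with a library left out). Its relatives NOTUM (26.3 CPM and 24.1 CPM, adjusted p = 0.325) and notum1b (31.4 CPM and 31.4 CPM, adjusted p = 1) did not pass.

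Of 6 tested inhibitors that bind Wnt proteins, WIF1, frzb and SFRP5 fell, and both SFRP1 genes and SFRP2 did not pass. WIF1, a secreted Wnt-binding protein found in cartilage and bone, was at 35.4, 37.7 and 36.3 CPM in exposed and 60.7, 62.1 and 64.8 CPM in control libraries (log2 fold change -0.78 ± 0.04, adjusted p = 3.12e-11). The gene frzb, a secreted Frizzled-related protein gene of cartilage, was at 9.42, 10.8 and 10.8 CPM against 20.3, 18.9 and 21.0 CPM (log2 fold change -0.96 ± 0.08, adjusted p = 6.42e-08). In both genes the groups were far apart, and both calls held with any 1 library left out. SFRP5, of the same family as frzb, was at 4.29, 3.67 and 3.37 CPM against 6.23, 6.86 and 4.84 CPM (log2 fold change -0.67 ± 0.18, adjusted p = 0.0106). That call did not hold without control library 2 or exposed library 3 (adjusted p up to 0.0655). SFRP2 was at 19.9 CPM in exposed and 19.7 CPM in control libraries. Chondrocyte markers were lower in the same exposed libraries, as were those of other lists given above. Their part in these inhibitor values was not tested.

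Among inhibitors that bind LRP receptors, SOST and 1 of the 2 genes named SOSTDC1 fell. SOST encodes sclerostin, which osteocytes release in mammals to restrain bone formation. It was at 8.83, 8.04 and 10.4 CPM in exposed and 17.9, 14.4 and 16.9 CPM in control libraries, again without overlap (log2 fold change -0.85 ± 0.14, adjusted p = 5.79e-06; -0.96 to -0.76 with a library left out). SOSTDC1 (ENSDARG00000068892), a relative of sclerostin that also blocks BMP proteins, also fell, at 56.4, 56.8 and 56.2 CPM against 67.2, 65.1 and 63.9 CPM (log2 fold change -0.21 ± 0.02, adjusted p = 0.00377). The other SOSTDC1 gene (ENSDARG00000056021) was at 0.537 CPM against 0.545 CPM and did not pass (adjusted p = 0.991).

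Of the Dickkopf genes, both copies of DKK3, a divergent member of the family, fell. The gene ENSDARG00000070683 was at 13.3, 13.7 and 13.2 CPM in exposed and 20.0, 17.9 and 19.4 CPM in control libraries (log2 fold change -0.51 ± 0.05, adjusted p = 0.000348). The gene ENSDARG00000103591 was at 2.60, 2.14 and 2.39 CPM against 3.60, 4.23 and 4.84 CPM (log2 fold change -0.83 ± 0.14, adjusted p = 0.00763). Neither copy overlapped between the groups. The genes dkk1a, dkk1b and dkk2, whose family members block LRP6 in the textbook pathway, were at 1.73 CPM, 1.23 CPM and 2.44 CPM in exposed and 1.60 CPM, 1.34 CPM and 2.63 CPM in control libraries, and none of the 3 passed (adjusted p = 0.842, 0.828 and 0.832).

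R-spondin genes were lower where they passed, in 2 of 4 genes. With the ligase gene ZNRF3 the lower share was 40% of 5 tested genes, against 18.7% of all genes tested. RSPO3, which supports blood vessel and bone growth in mammals, was at 3.70, 3.88 and 5.62 CPM in exposed and 7.01, 9.98 and 9.64 CPM in control libraries. Control library 1 was the lowest of its group and still above the highest exposed value (log2 fold change -1.01 ± 0.25, adjusted p = 0.000103; -1.23 to -0.90 with a library left out). RSPO2, which acts in limb and skeletal patterning in mammals, was at 3.25, 3.33 and 3.65 CPM against 5.16, 4.59 and 5.46 CPM (log2 fold change -0.57 ± 0.09, adjusted p = 0.0344). Its groups did not overlap, but the call was lost without any 1 library except control library 2 (adjusted p up to 0.107). The RSPO2 log2 fold change ranged from -0.64 to -0.52 with a library left out. RSPO1 and RSPO4 were near 1 CPM in both groups and did not pass (adjusted p = 0.505 and 0.854). ZNRF3, a ligase that removes Frizzled receptors and is itself a target of the pathway, was at 15.4 ± 1.33 CPM in exposed and 17.3 ± 1.90 CPM in control libraries (SD, n = 3 each; adjusted p = 0.26). Endothelium markers were lower in the same exposed libraries, as were those of other lists given above. Their part in the R-spondin values was not tested.

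In the cytoplasm 6 of 12 tested genes fell (50%, against 18.7% of all genes tested) and 0 rose (against 20.1%). All 6 that fell averaged above 5 CPM, a level at which 26.3% of all genes were lower and 25.9% higher. AXIN2, the most widely used reporter gene of beta-catenin signalling, was at 78.8, 83.3 and 80.0 CPM in exposed and 103, 107 and 102 CPM in control libraries (log2 fold change -0.37 ± 0.03, adjusted p = 6.03e-07). NKD1, a feedback inhibitor that binds Dishevelled, was at 37.1, 35.4 and 39.5 CPM against 52.8, 53.4 and 46.6 CPM (log2 fold change -0.45 ± 0.08, adjusted p = 7.2e-06). In both, all exposed values were below all control values, and both calls held with any 1 library left out.

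The other 4 cytoplasmic calls were each lost when some single libraries were left out. CTNNB1, the beta-catenin gene, was at 530.4, 542 and 542 CPM in exposed and 579, 570.1 and 574 CPM in control libraries (log2 fold change -0.09 ± 0.01, adjusted p = 0.019). Its call was lost without any 1 exposed library (adjusted p up to 0.0902), and its log2 fold change ranged from -0.10 to -0.08 with a library left out. AXIN1, the scaffold of the destruction complex, was at 52.4, 44.8 and 50.5 CPM against 58.8, 52.7 and 55.8 CPM (adjusted p = 0.0347), lost without control library 1 or 3 or exposed library 2 or 3 (log2 fold change -0.18, or -0.23 to -0.11 with a library left out; adjusted p up to 0.267). DVL3 (ENSDARG00000015707), a Dishevelled gene, was at 24.7, 28.5 and 25.4 CPM against 28.9, 33.6 and 33.0 CPM (log2 fold change -0.28 ± 0.09, adjusted p = 0.0105), lost without control library 2 or exposed library 1 or 3 (adjusted p up to 0.0655). The log2 fold change of this gene ranged from -0.35 to -0.24 with a library left out. NKD2 overlapped between groups, at 13.4, 11.3 and 10.3 CPM against 12.2, 15.7 and 17.3 CPM (log2 fold change -0.37 ± 0.19, adjusted p = 0.0313), and its call was lost without control library 2 or 3 or exposed library 2 or 3 (adjusted p up to 0.181). APC, which scaffolds beta-catenin destruction, was at 66.0 ± 2.00 CPM in exposed and 61.1 ± 0.839 CPM in control libraries (SD, n = 3 each; adjusted p = 0.129). The gene dvl2 was just outside the threshold (adjusted p = 0.0848; 0.0293 without control library 1). Both genes named DVL1 had higher exposed values without overlap, at 3.01 CPM against 2.06 CPM and 3.41 CPM against 2.65 CPM, but did not pass (adjusted p = 0.132 and 0.271).

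In the nucleus 3 of 7 tested genes fell (42.9%, against 18.7% of all genes tested) and 0 rose (against 20.1%). TCF7L1, a TCF protein that mostly represses Wnt targets, was at 50.0, 51.8 and 56.2 CPM in exposed and 70.7, 77.2 and 80.0 CPM in control libraries, with a wide gap between the groups (log2 fold change -0.53 ± 0.07, adjusted p = 4.28e-08). Its relative tcf7l1b overlapped between groups, at 33.0, 27.9 and 26.7 CPM against 31.4, 36.5 and 34.0 CPM (log2 fold change -0.22 ± 0.11, adjusted p = 0.0438), and lost its call without control library 2 or 3 or exposed library 2 or 3 (adjusted p up to 0.246) and with DESeq2 (adjusted p = 0.0602). SP5, a transcription factor and direct target of the pathway, was at 4.35, 3.14 and 2.43 CPM against 5.37, 5.27 and 5.15 CPM (log2 fold change -0.68 ± 0.24, adjusted p = 0.0182). Its groups did not overlap, but the call did not hold without exposed library 2 or 3 (adjusted p up to 0.143). LEF1, TCF7 and TCF7L2 can activate Wnt targets with beta-catenin. LEF1 was at 30.9 ± 2.92 CPM in exposed and 34.2 ± 2.11 CPM in control libraries, TCF7 at 10.0 ± 1.02 CPM and 8.67 ± 0.623 CPM, and TCF7L2 at 36.2 ± 2.25 CPM and 33.4 ± 3.02 CPM (SD, n = 3 each). None of these 3 passed (adjusted p = 0.168, 0.287 and 0.265).

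**Figure D4:**
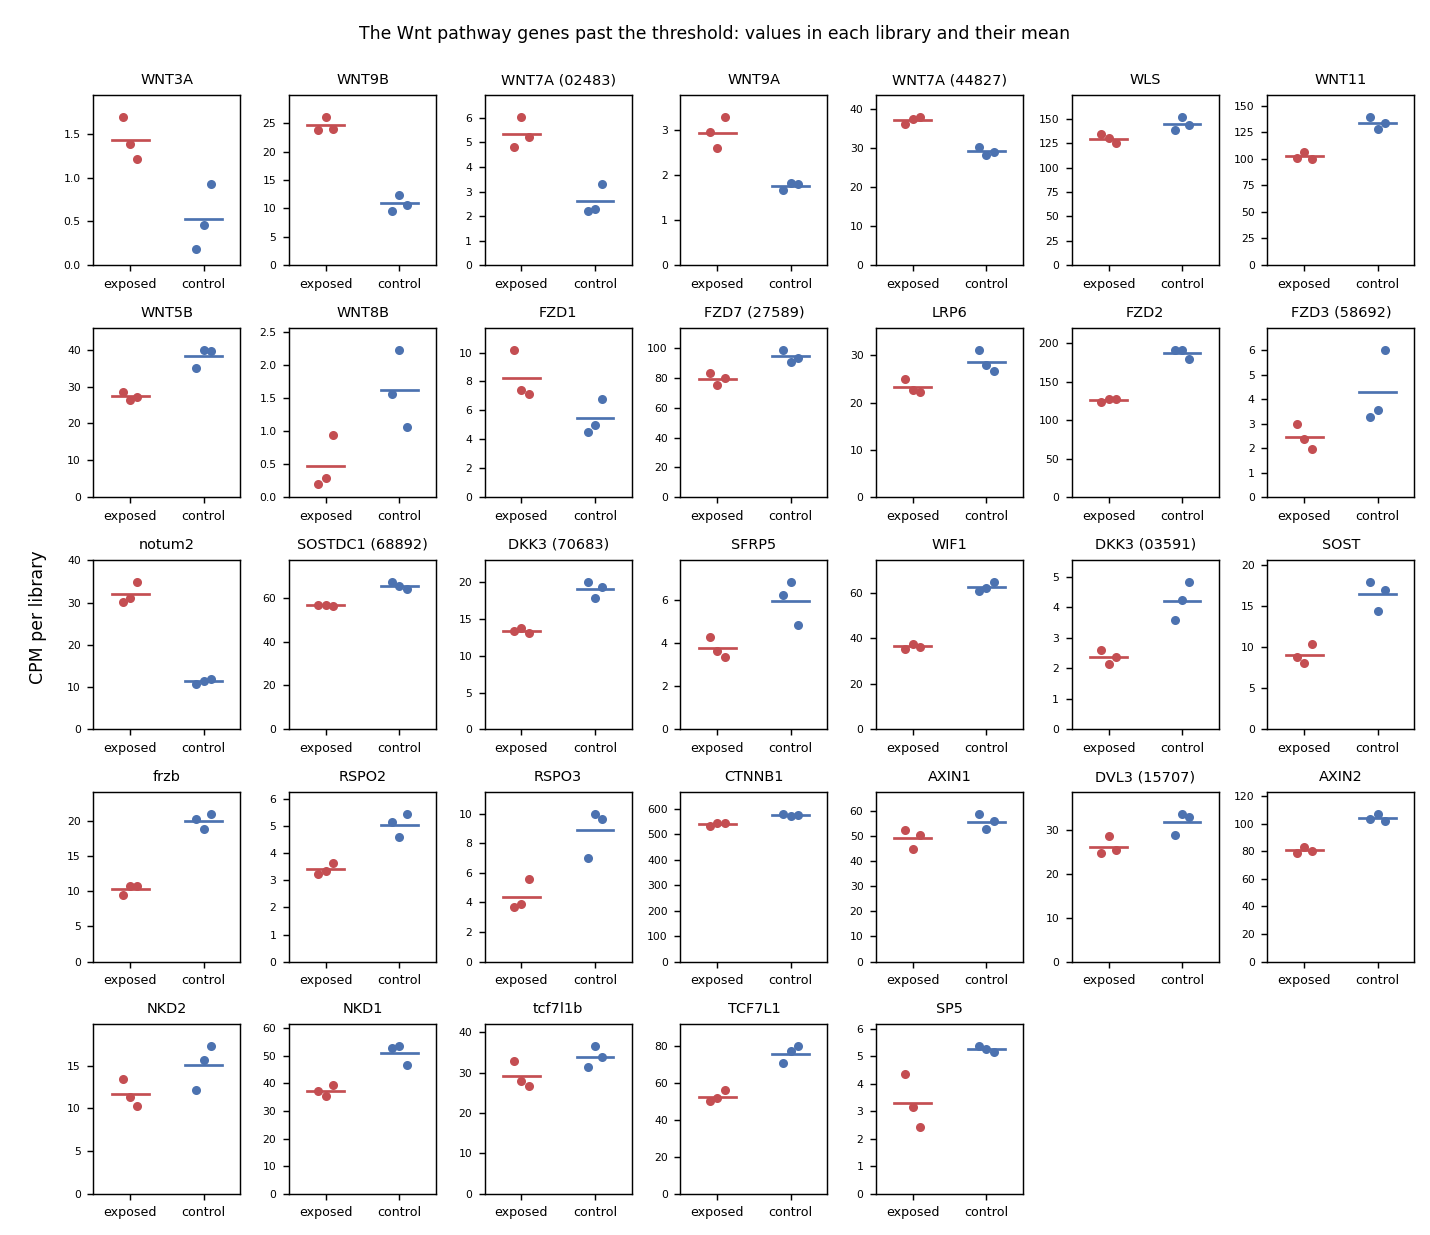
CPM in each library (points, libraries 1 to 3 from left to right) and group mean (lines) of the 33 Wnt pathway genes past the threshold, exposed left of control, each axis starting at 0. Overlap between the groups appears for NKD2 and tcf7l1b, while notum2, WNT9B, FZD2, WIF1 and frzb show wide gaps.

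Genes widely described as induced by beta-catenin signalling were read across these roles. Of 9 such genes, listed with earlier results of these data known, 7 were matched in the table (AXIN2, NKD1, LEF1, SP5, sp5l, ZNRF3 and dkk1b). Of these 7, 0 rose, 3 fell and 4 did not pass. The names notum1a and rnf43 had no match. The gene named only NOTUM, not identified as notum1a, had a positive log2 fold change of 0.12 and did not pass (adjusted p = 0.3245). The 3 lower calls are 42.9% of the 7, against 18.7% of all genes tested, a share that rests on few genes. All 7 matched genes had negative log2 fold changes, as did 10655 of the 21194 genes tested. They ran from -0.68 for SP5 to -0.13 for dkk1b, and their median was -0.17, near the -0.16 of all 79 Wnt genes. The log2 fold change of sp5l, at 2.05 ± 0.129 CPM in exposed and 2.33 ± 1.28 CPM in control libraries (SD, n = 3 each), turned to 0.33 without control library 3. With a library left out, the log2 fold change ranged from -0.22 to -0.04 for dkk1b, from -0.24 to -0.09 for ZNRF3 and from -0.22 to -0.09 for LEF1, none of which passed.

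Genes with the same name did not always move alike. There were 26 members that share 12 names with another member. Both WNT7A genes rose and both DKK3 genes fell, whereas for FZD3, DVL3 and SOSTDC1 1 gene fell and the other did not pass. Reads of close copies may have been divided between them in counting, which was not tested. Of the 10 genes too low to test, 5 had 0 counts in every library, namely the 2 genes named WNT8A, 1 each of FZD7 and FZD9, and nkd3l. A count of 0 allows up to 0.0974 CPM in an exposed library and 0.0930 CPM in a control library at 3 counts, for counting error only. This limit takes every count as independent, and it would be higher if each mate was counted, which was not tested. The other 5 (wnt11f2, sfrp2l and 3 genes named nkd3) had 8 to 52 counts over the 6 libraries.

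Further pathway genes outside the member rule were read from a separate list of 68 genes. With 67 of them tested, 5 rose and 15 fell (median log2 fold change -0.08), and 47 did not pass. This was 7.46% higher and 22.4% lower, and the 29.9% past the threshold was below the 38.8% of all genes tested. Without exposed library 1 the 5 higher calls became 2, KREMEN1 and SCRIB. Surface regulators fell in 4 of 17 cases (23.5%, against 18.7% of all genes tested) and rose in 1 (5.88%, against 20.1%). PTK7, a co-receptor of planar polarity, was at 35.6 ± 1.30 CPM in exposed and 49.1 ± 3.31 CPM in control libraries, and RYK, a Wnt receptor kinase-like protein, at 31.8 ± 1.17 CPM and 41.3 ± 2.71 CPM (SD, n = 3 each; adjusted p = 4.09e-06 and 0.000156). KREMEN1, a Dickkopf co-receptor, was the 1 that rose, at 6.98 ± 0.541 CPM against 4.00 ± 1.47 CPM (SD, n = 3 each; adjusted p = 0.00494).

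Of the cytoplasmic genes on that list 8 of 20 fell (40%, against 18.7% of all genes tested) and 0 rose. GSK3B, a kinase that marks beta-catenin for destruction, was at 64.8 ± 2.80 CPM in exposed and 76.2 ± 2.13 CPM in control libraries, and DACT1, a Dishevelled-binding modulator, at 20.7 ± 0.868 CPM and 27.1 ± 2.65 CPM (SD, n = 3 each; adjusted p = 0.00118 and 0.00137). In the planar polarity group 2 of 15 rose (13.3%, against 20.1% of all genes tested) and 0 fell. The 2 were SCRIB, a cell polarity scaffold gene, at 106 ± 1.90 CPM against 84.8 ± 3.56 CPM, and CELSR3, a cadherin of axon guidance, at 5.49 ± 0.503 CPM against 3.21 ± 1.01 CPM (SD, n = 3 each; adjusted p = 3.86e-06 and 0.00911). The CELSR3 call was lost without control library 1 or exposed library 1 (adjusted p = 0.0533 and 0.0555). Of the nuclear cofactors 1 of 11 rose (9.09%, against 20.1%) and 2 fell (18.2%, near the 18.7% of all genes tested). The 1 that rose was BCL9L (adjusted p = 0.0488). Its call was lost without control library 1 or any 1 exposed library (adjusted p up to 0.283). CCND1, the cyclin D1 gene and an often named downstream gene, fell, at 74.7 ± 2.15 CPM in exposed and 86.4 ± 6.47 CPM in control libraries, while cd44a rose, at 5.24 ± 1.04 CPM against 3.10 ± 0.368 CPM (SD, n = 3 each; adjusted p = 0.00391 and 0.00808). The cd44a call was lost without exposed library 1 (adjusted p = 0.0971). The 2 genes named MYC did not pass (adjusted p = 0.469 and 0.863).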

How the data were processed

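The deposited table holds raw counts per Ensembl gene, with no normalization by the authors. The submitters' processing notes name build GRCz11 and the tools STAR 2.7.10a, featureCounts 2.0.6, FastQC and R 4.4.2; options, strand setting and annotation release are not given in the sources used here. Between 76.1% and 81.7% of nonzero counts per library were even numbers, as would arise where each mate was counted, which was not tested; the values of overlapping genes and close copies are uncertain. Gene names came from a symbol table covering 29201 of the 32520 genes; many names are in upper case and lack the zebrafish paralog letter. Genes passing filterByExpr (minimum count 10, minimum total 15) were scaled by TMM and tested with edgeR 4.0.16 in R 4.3.3. The test was a robust quasi-likelihood F-test, exposed over control, with Benjamini-Hochberg adjustment over all tested genes and a threshold of 0.05. The procedure was first run on simulated counts, which held fewer changed genes and larger changes than most called here. That run therefore does not measure the accuracy of these calls. Standard errors (SE) refer to the group difference in mean log2 CPM (prior count 2). Alternatives were RLE and upper-quartile scaling, DESeq2 1.42.0, other filters, halved counts, a replicate block and leaving out each library. Members and lists were chosen with earlier results of these data known. Genes were named by a rule: in each role up to 5 past the threshold with the smallest p and the one with most counts, the feedback genes, and the nearest misses; other genes were named after their values were seen.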

Additional observations from a re-analysis of the deposited data

How the results depend on the processing

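The counts of 7 higher and 26 lower Wnt genes moved little under the 7 settings that kept all libraries: 6 to 7 were higher and 25 to 27 lower. WNT9A lost its call with no low-count filter and with the replicate block, tcf7l1b with DESeq2, and wnt4b gained one with a filter of at least 1 CPM in 3 libraries. With a library left out, the Wnt genes ranged from 4 to 6 higher and 15 to 25 lower, and the other pathway genes from 2 to 6 higher and 13 to 17 lower. The log2 fold change of sp5l ranged from -0.50 to 0.33 (0.33 without control library 3, -0.50 without control library 2). The replicate block gave 6 higher and 26 lower Wnt genes and 8164 calls over all genes, against 8213; same-numbered libraries did not deviate together (correlations of -0.0131, -0.0037 and 0.0119), so the numbers were not taken to pair samples. Of tested members under 5 CPM on average 25.7% passed, against 20.1% of all tested genes at that level, and of those at 5 CPM or more 54.5%, against 52.2%. Under 5 CPM 8.57% of members were higher and 17.1% lower, against 12.0% and 8.06% of all genes tested. At 5 CPM or more 9.09% were higher and 45.45% lower, against 25.9% and 26.3%.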
